A study of Mus musculus with 4 samples.

Results

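The antigen receptor loci of the mouse are the 5 stretches of chromosome that encode the chains of immunoglobulins and T cell receptors, and their DNA copy number was read here in 4 liver tumours. Igh, on chromosome 12 from 114450000 to 117300000, encodes the immunoglobulin heavy chain. Igk, on chromosome 6 from 67500000 to 70700000, and Igl, on chromosome 16 from 19000000 to 19300000, encode the kappa and lambda light chains. Tcrb, on chromosome 6 from 40800000 to 41550000, encodes the T cell receptor beta chain. Tcra/d, on chromosome 14 from 53000000 to 54900000, holds the alpha chain segments with the delta chain segments among them. All coordinates are on build mm9, which the file headers name. A probe, a spot of synthetic DNA up to 60 bases long, belonged to a locus where its midpoint lay between these borders, so position alone and no measured value chose the members. There were 485 such probes of 170305 in all, with 174 in Igh, 135 in Igk, 63 in Tcrb, 94 in Tcra/d and 19 in Igl. The borders came without an annotation of the single gene segments.

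The tumours grew in the livers of 4 male mice, numbered 239, 240, 244 and 252, that lacked Fah and Trp53 (Fah-/- Trp53-/-). The Fah enzyme completes the breakdown of tyrosine in hepatocytes, and Trp53 is the gene of the tumour suppressor p53. NTBC, a drug that blocks this pathway upstream of Fah, was given in drinking water at 7.5 mg/L and was cut to 2.5% of that dose for 6 months. Each tumour's DNA, labelled with Cy5, was hybridised against 1 pool of liver DNA from 3 male Fah+/+ Trp53+/+ littermates, labelled with Cy3. All 4 tumour mice carry both deletions and none of the pooled mice does, and tumour-free liver of the mutant genotype was not analysed here. A tumour sample is a mixture of cells, so a change in few cells and a smaller change in all cells cannot be told apart.

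In developing B and T cells, the RAG recombinase joins variable, diversity and joining segments of these loci and cuts out or inverts the DNA between them. Hepatocytes and other cells that are not lymphocytes keep the germline arrangement. RAG cuts beside recombination signals, which consist of a conserved heptamer and a conserved nonamer with a spacer between them. The loci are also made of arrays of similar gene segments, and inbred mouse strains are known to differ in which segments they carry. Array comparative genomic hybridisation reads the ratio of tumour DNA to pool DNA at each probe. Loss of 1 of the 2 copies in every cell would give a log2 ratio of -1 in the ideal case.

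Several probes are printed first because the results come back to them, from 5′ to 3′ as the array design gives them, with the strand not given in the sources used here. The first pair had a log2 ratio of -1 or lower in all 4 tumours, and no other probe of the loci did.
Igh chr12:115687571-115687630: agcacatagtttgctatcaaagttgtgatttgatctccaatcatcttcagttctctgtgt
Igk chr6:68877243-68877302: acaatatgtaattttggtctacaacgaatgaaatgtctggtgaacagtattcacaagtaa
The next was the only locus probe at 1 or higher in all 4 tumours.
Tcra/d chr14:53759070-53759129: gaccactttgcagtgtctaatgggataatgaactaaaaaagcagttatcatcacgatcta
The next 3 were the lowest of the 19 probes of Igl by their mean over the tumours.
Igl chr16:19057880-19057939: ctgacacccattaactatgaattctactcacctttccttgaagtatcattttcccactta
Igl chr16:19180082-19180141: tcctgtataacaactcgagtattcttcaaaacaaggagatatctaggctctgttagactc
Igl chr16:19268468-19268527: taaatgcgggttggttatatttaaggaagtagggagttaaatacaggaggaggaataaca
The last 4 were the only locus probes that hold the letters of the signal heptamer, CACAGTG, or of its other strand, CACTGTG, which are in capitals.
Igh chr12:114540162-114540221: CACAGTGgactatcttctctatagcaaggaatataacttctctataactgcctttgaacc
Igh chr12:115647891-115647950: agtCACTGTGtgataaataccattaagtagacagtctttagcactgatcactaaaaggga
Igk chr6:69962827-69962886: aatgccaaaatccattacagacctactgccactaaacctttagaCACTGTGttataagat
Igk chr6:69984140-69984199: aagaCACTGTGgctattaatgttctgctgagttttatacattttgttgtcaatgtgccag

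Of the 485 probes, 2 shared a run of 20 bases with another locus probe, and none with a probe outside the loci. The 4 probes with the heptamer were 0.825% of the 485 locus probes, against 0.837% of the 161460 probes on chromosomes 1 to 19. The nonamer, ACAAAAACC or on the other strand GGTTTTTGT, was in none of the locus probes and in 0.0935% of the probes on chromosomes 1 to 19. A match of letters is no recombination signal, and a probe without one says nothing of the DNA beside it. Of the 4 probes, the first Igh probe read -0.42, -0.29, -0.54 and -0.34 in tumours 239, 240, 244 and 252 as log2 ratios, and the second had -0.21, -0.16, 0.12 and -0.31. The first Igk probe had -0.13, -0.08, -0.21 and -0.09 in the same tumours, and the second had 0.09, 0.33, 0.13 and 0.28. Within 4 probes of the same letters, ratios therefore lay on both sides of 0. Relative to the probes within 3 Mb of their locus, the 4 averaged -0.16, 0.10, -0.05 and 0.28 in the same order.

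All values are centred log2 ratios of tumour over pool, with 0 at the median of chromosomes 1 to 19 of each array. Of the locus probes, 97.9% were well above background in both colours on all 4 arrays, against 98.3% of all probes of chromosomes 1 to 19. The SD of the noise from one probe to the next, on the log2 scale, was 0.31 (239), 0.35 (240), 0.37 (244) and 0.39 (252). Tumour 252 went against its sex label: its median was 0.73 on X and -2.43 on Y, against -0.09 and -0.31 in tumour 239, -0.11 and -0.14 in tumour 240, and -0.30 and -1.20 in tumour 244. The loci are autosomal, and each main difference is also given without tumour 252 below. All 4 arrays shared the pool, the slide, the scan and the dye orientation, so an offset common to the arrays and a difference common to the tumours cannot be told apart.

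The first question was whether the loci had lost or gained DNA relative to the chromosome around them, as the flanks take out whole-chromosome gain or loss. Each locus was set against the probes within 3 Mb on either side of it, 445 to 528 probes a locus. Igl, Igh and Igk were lower than their flanks, Tcra/d was higher, and Tcrb was not distinguishable from its flanks. The differences were small beside the value of -1 for 1 lost copy. Of 2388 bins of 1 Mb on chromosomes 1 to 19, treated the same way, 33.8% were called lower and 30.9% higher than their flanks by limma (adjusted p under 0.05). With so many regions called, a call alone does not set a locus apart, and sizes and the values in each tumour are given for that reason. An exact sign-flip permutation test over 4 tumours cannot give a two-sided p below 0.13, and it gave this smallest value for each of the 4 loci that moved the same way in all tumours and 0.375 for Tcrb.

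**Figure D1:**
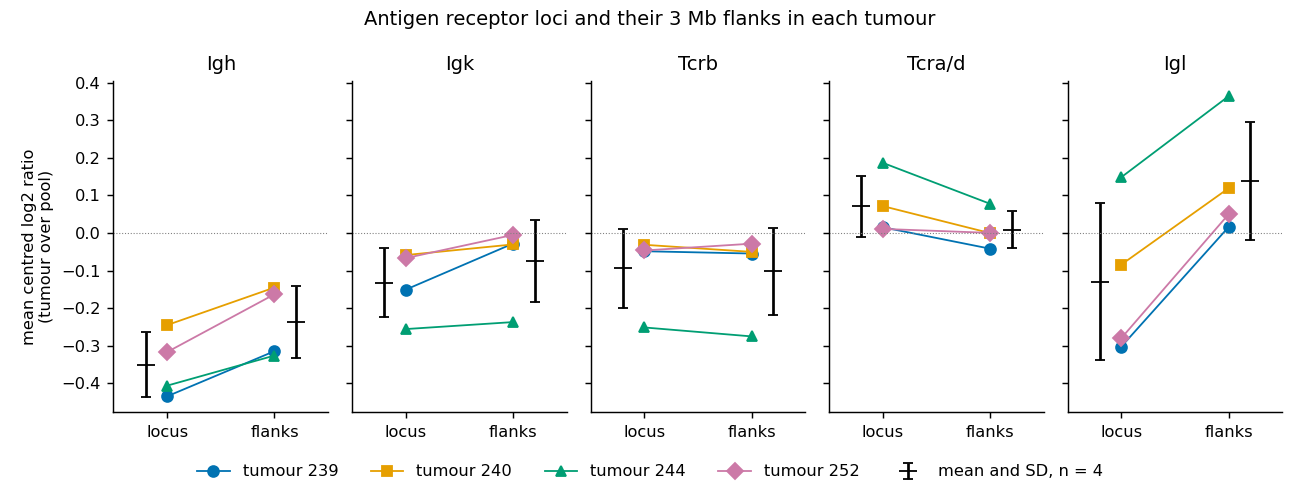
Mean centred log2 ratio of tumour over pool of each antigen receptor locus (left of each panel) and of its 3 Mb flanks (right of each panel). Coloured lines join the values of 1 tumour and black bars are the mean and SD over 4 tumours; the Igl and Igh lines rise to the flanks in all 4 tumours, and tumour 244 is the lowest at Igk and Tcrb and the highest at Igl in both positions.

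Igl, the lambda light chain locus, departed furthest from its surroundings. Its probes averaged -0.30, -0.08, 0.15 and -0.28 in tumours 239, 240, 244 and 252, against 0.02, 0.12, 0.36 and 0.05 in its flanks. The level of the locus itself overlapped that of the flanks between tumours, since tumour 244 stood high on both, but within each tumour the locus was the lower one. The difference was -0.32, -0.20, -0.22 and -0.33 in the same tumours, averaging -0.27 ± 0.07 (limma adjusted p = 4.74e-07; SD, n = 4). It was -0.25 without tumour 252, and -0.16 with normexp (limma adjusted p = 4.72e-05). Normexp models the local background in place of the scanner's subtraction, adds an offset of 50 and here took signals without dye normalisation. These steps were not tested apart. Of the 2388 bins of 1 Mb, 3 had a mean difference as low or lower. A bin held a median of 70 probes and Igl only 19, so windows of 250 kb, with a median of 19 probes, are nearer in size. Of 9324 such windows, 190 were as low or lower, which is 2.04%.

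**Figure D2:**
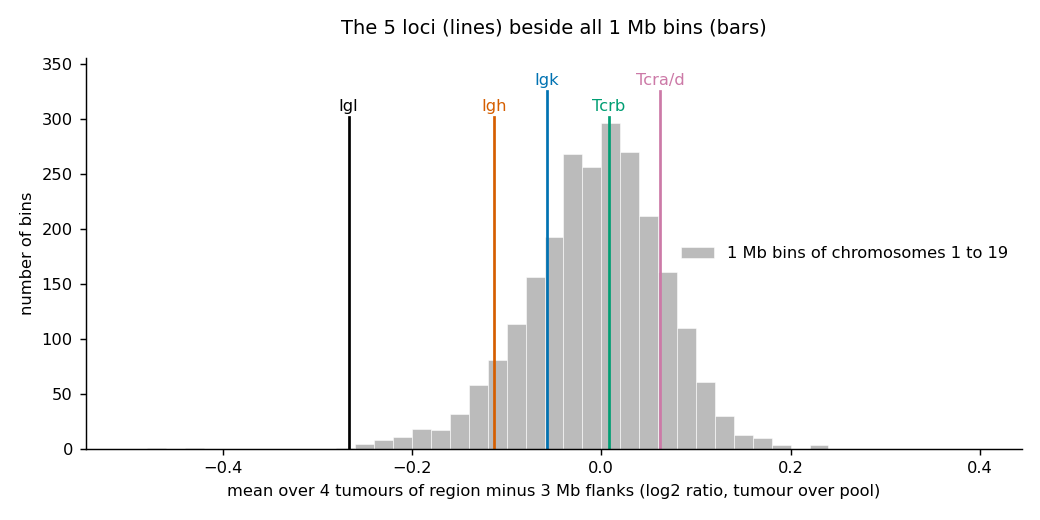
Number of 1 Mb bins of chromosomes 1 to 19 (bars) by their mean difference from their flanks over 4 tumours, in log2 ratio, with the 5 loci as lines. Igl lies in the low tail at -0.27, Igh at -0.11 and Igk at -0.06 lie left of the centre, Tcrb lies near 0 and Tcra/d at 0.06 lies right of it.

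Most probes of Igl were low, and most evenly so in its high-coordinate part. Of its 19 probes, 12 were called lower and 0 higher, against 25.4% lower and 28.0% higher among all other probes of chromosomes 1 to 19 (limma, adjusted p under 0.05). Probes and windows in a locus were set against the flanks of the whole locus, and those elsewhere against the 3 Mb around each. Such shares are therefore not fully matched, here and below. The lowest, at 19057880, read -0.65, -0.53, -0.31 and -0.80 in tumours 239, 240, 244 and 252 as log2 ratios, which is 0.71 below the flank mean on average. The probe at 19180082 had -0.68, -0.24, -0.16 and -0.60 in the same tumours. The probe at 19268468 had -0.61, -0.44, -0.14 and -0.47. All 3 were negative in all 4 tumours, which follows in part from choosing the lowest of the 19 and is no separate evidence. Tumour 244, in which the flanks were high, had the least negative value of each. No Igl probe reached -1 in any tumour. In the first 160 kb the probes lay on both sides of the flank mean, and from 180 to 289 kb from the low-coordinate border the mean over tumours of every probe was below it, between -0.56 and -0.17. This split was drawn after the values were seen. The transcript the files list as ENSMUST00000103743, the only named feature of the locus, had 1 probe at 0.05 ± 0.12 relative to the flanks (SD, n = 4), on both sides of 0 between tumours.

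**Figure D3:**
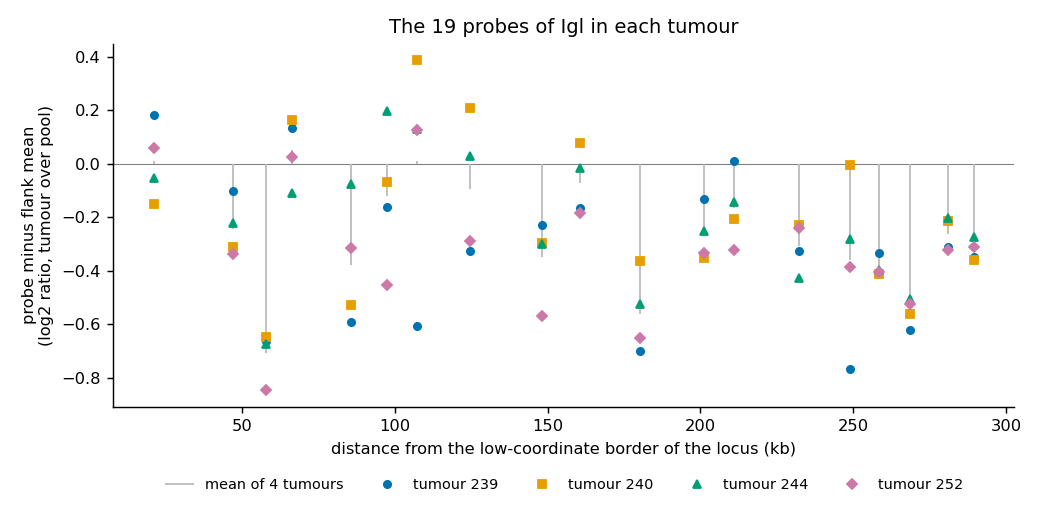
Log2 ratio of tumour over pool minus the flank mean for the 19 probes of Igl, by distance from the low-coordinate border of the locus in kb; points are tumours and grey lines run to the mean of 4 tumours. From 180 kb on, a position chosen after the values were seen, all means lie below 0, while nearer to the border probes lie on both sides of 0.

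The 3 windows of 100 kb in Igl averaged -0.23 ± 0.07, -0.21 ± 0.18 and -0.33 ± 0.03 relative to the flanks (SD, n = 4), from the low to the high coordinate, and all were called lower (limma adjusted p = 0.000159, 0.00716 and 7.27e-06), as were 26.8% of windows outside the loci. With normexp the first averaged -0.13 and the last -0.19 (limma adjusted p = 0.00642 and 8.42e-05). The middle window was below its flanks in 3 of 4 tumours, with differences of -0.41, 0.0022, -0.14 and -0.31 in tumours 239, 240, 244 and 252. Low values did not stop at the high-coordinate border. The window 100 to 200 kb beyond it was at -0.29, -0.33, -0.25 and -0.22 relative to the flanks in the 4 tumours, which overlaps the values inside the locus. The window between it and the locus had only 2 probes and averaged 0.07. On the other side, the window that adjoins the locus averaged 0.06.

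The processed brightness of each colour, from which the ratio is made, gives the same contrast in parts. In log2 signal, Igl probes were brighter than flank probes in the tumour colour by 0.05, 0.11, 0.17 and 0.08 in tumours 239, 240, 244 and 252. In the pool colour the same probes were brighter than flank probes by 0.37, 0.31, 0.39 and 0.41 on those arrays. The excess was larger in the pool colour on all 4 arrays, which restates the negative difference and is no separate evidence. The GC content was 36.0% in Igl probes and 36.9% in flank probes, and with the GC correction the difference was -0.24. The part of probe brightness in the result was not tested.

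Igh, the heavy chain locus near the end of chromosome 12, was lower than its flanks in a chromosome that was itself low. Its level was -0.43, -0.25, -0.41 and -0.32 in tumours 239, 240, 244 and 252, against -0.31, -0.15, -0.33 and -0.16 in its flanks and -0.40, -0.21, -0.39 and -0.24 over chromosome 12. In each tumour the flanks stood above the chromosome mean, and the locus lay nearer to that mean than to its flanks. Between tumours the locus followed its chromosome, with 239 and 244 lowest and 240 highest. The difference from the flanks was -0.12, -0.10, -0.08 and -0.15 in the same tumours, averaging -0.11 ± 0.03 (limma adjusted p = 1.53e-05; SD, n = 4). It was -0.10 without tumour 252, and -0.065 with normexp background correction (limma adjusted p = 0.00215). Of the 2388 bins, 182 were as low or lower, which is 7.62%. Igh spans more than a bin, as do Igk and Tcra/d below, so such shares are not matched in size.

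Of the 23 windows of 100 kb in Igh, 17 were called lower and 0 higher, against 26.8% lower and 28.3% higher among 20871 windows outside the loci. The Igh windows share 1 reference outside the locus, whereas each window elsewhere was set against its own surroundings, which can share a broad shift with it. The lowest, from 116100001, was at -0.28, -0.24, -0.21 and -0.41 relative to the flanks in tumours 239, 240, 244 and 252 (limma adjusted p = 8.34e-05), but it averaged 0.11 with normexp background correction (limma adjusted p = 0.0107). The window from 115200001 was at -0.20, -0.24, -0.31 and -0.30 in the same tumours (limma adjusted p = 4.12e-05), and its call was lost with normexp, at -0.0080 (limma adjusted p = 0.822). The window from 115600001 was at -0.23, -0.19, -0.15 and -0.34 (limma adjusted p = 0.000293). It holds the probe at 115687571 printed above, which had log2 ratios of -1.61, -1.11, -1.22 and -1.27 in the 4 tumours. That probe stood alone, as no neighbour was at -1 or lower in all tumours.

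The low-coordinate end of Igh, where the joining and constant segments lie, differed from the part with most variable segments. The 25 probes of the first 250 kb averaged -0.33, -0.18, -0.33 and -0.21 in tumours 239, 240, 244 and 252, against -0.45, -0.26, -0.42 and -0.34 in the other 149 probes. The constant end was higher by 0.12, 0.08, 0.09 and 0.13 in the same tumours, averaging 0.10 ± 0.02 (SD, n = 4), which is higher in 4 of 4 tumours with the smallest p that the exact two-sided sign-flip permutation test allows, 0.13. It ranged from 0.06 with the GC correction to 0.16 with an end part of 150 kb. Relative to the flanks the constant end was at -0.02, -0.03, -0.0069 and -0.05, so that its average nearly met them. It was uneven within: the windows from 114450000 and 114500001 averaged 0.06 and 0.03 and were not called. The window from 114600001, also in this end, averaged -0.12 and was called lower (limma adjusted p = 0.00553).

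Igk, the kappa light chain locus, was lower than its flanks by less than Igh. Its level was -0.15, -0.06, -0.26 and -0.07 in tumours 239, 240, 244 and 252, against -0.03, -0.03, -0.24 and -0.0050 in its flanks. In tumour 244 the whole of chromosome 6 was low, with a mean of -0.25, and locus and flanks were low with it. The difference was -0.12, -0.03, -0.02 and -0.06 in the same tumours, averaging -0.058 ± 0.047 (limma adjusted p = 0.0069; SD, n = 4). It was -0.057 without tumour 252 and -0.036 without tumour 239, which had the lowest value. The call did not hold in 3 settings: it averaged -0.030 with the median over probes (limma adjusted p = 0.220), -0.037 with probes well above background only (limma adjusted p = 0.0607) and 0.015 with the GC correction (limma adjusted p = 0.348). Igk probes had 35.4% GC, against 36.6% in the flanks, the widest gap of the 5 loci. Of the bins, 21.6% were as low or lower.

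Within Igk the values were uneven, and 1 window stood out. Of 23 windows, 11 were called lower (47.8%) and 2 higher (8.70%), against 26.8% and 28.3% of windows outside the loci. The window from 68800001, the lowest of the 69 windows in the loci when all probes were kept, was at -0.58, -0.49, -0.40 and -0.43 relative to the flanks in tumours 239, 240, 244 and 252, averaging -0.47 ± 0.08 (limma adjusted p = 2.41e-06; SD, n = 4). It holds the Igk probe at 68877243, with log2 ratios of -1.65, -1.36, -1.14 and -1.09 in the 4 tumours, and its tumour signal was well above background on 3 of 4 arrays. With probes well above background only, the window averaged -0.27 (limma adjusted p = 3.55e-05), which was less low than the Igl window from 19200001 at -0.32. The next probe, at 68892002, was named after its values were seen and averaged -0.88 relative to the flanks. The windows from 68300001 and 68100001 averaged -0.26 ± 0.07 and -0.24 ± 0.10 (SD, n = 4; limma adjusted p = 8.66e-05 and 0.000344), and -0.14 and -0.13 with the GC correction (limma adjusted p = 0.00259 and 0.0128). The window from 67500001, at the low-coordinate border, was at 0.09, 0.16, 0.21 and 0.06 in the 4 tumours (limma adjusted p = 0.00503), and averaged 0.02 with normexp (limma adjusted p = 0.517). The window from 69700001, inside the locus, averaged 0.11 ± 0.12 (SD, n = 4; limma adjusted p = 0.0366) and lost its call without tumour 240, 244 or 252 or with the GC correction. The constant end of Igk, 17 probes in the last 250 kb, was at -0.14, -0.03, -0.31 and -0.10, against -0.15, -0.06, -0.25 and -0.06 in the other 118 probes, and its sign differed between tumours, 2 of 4 being higher (exact sign-flip permutation p = 0.625).

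**Figure D4:**
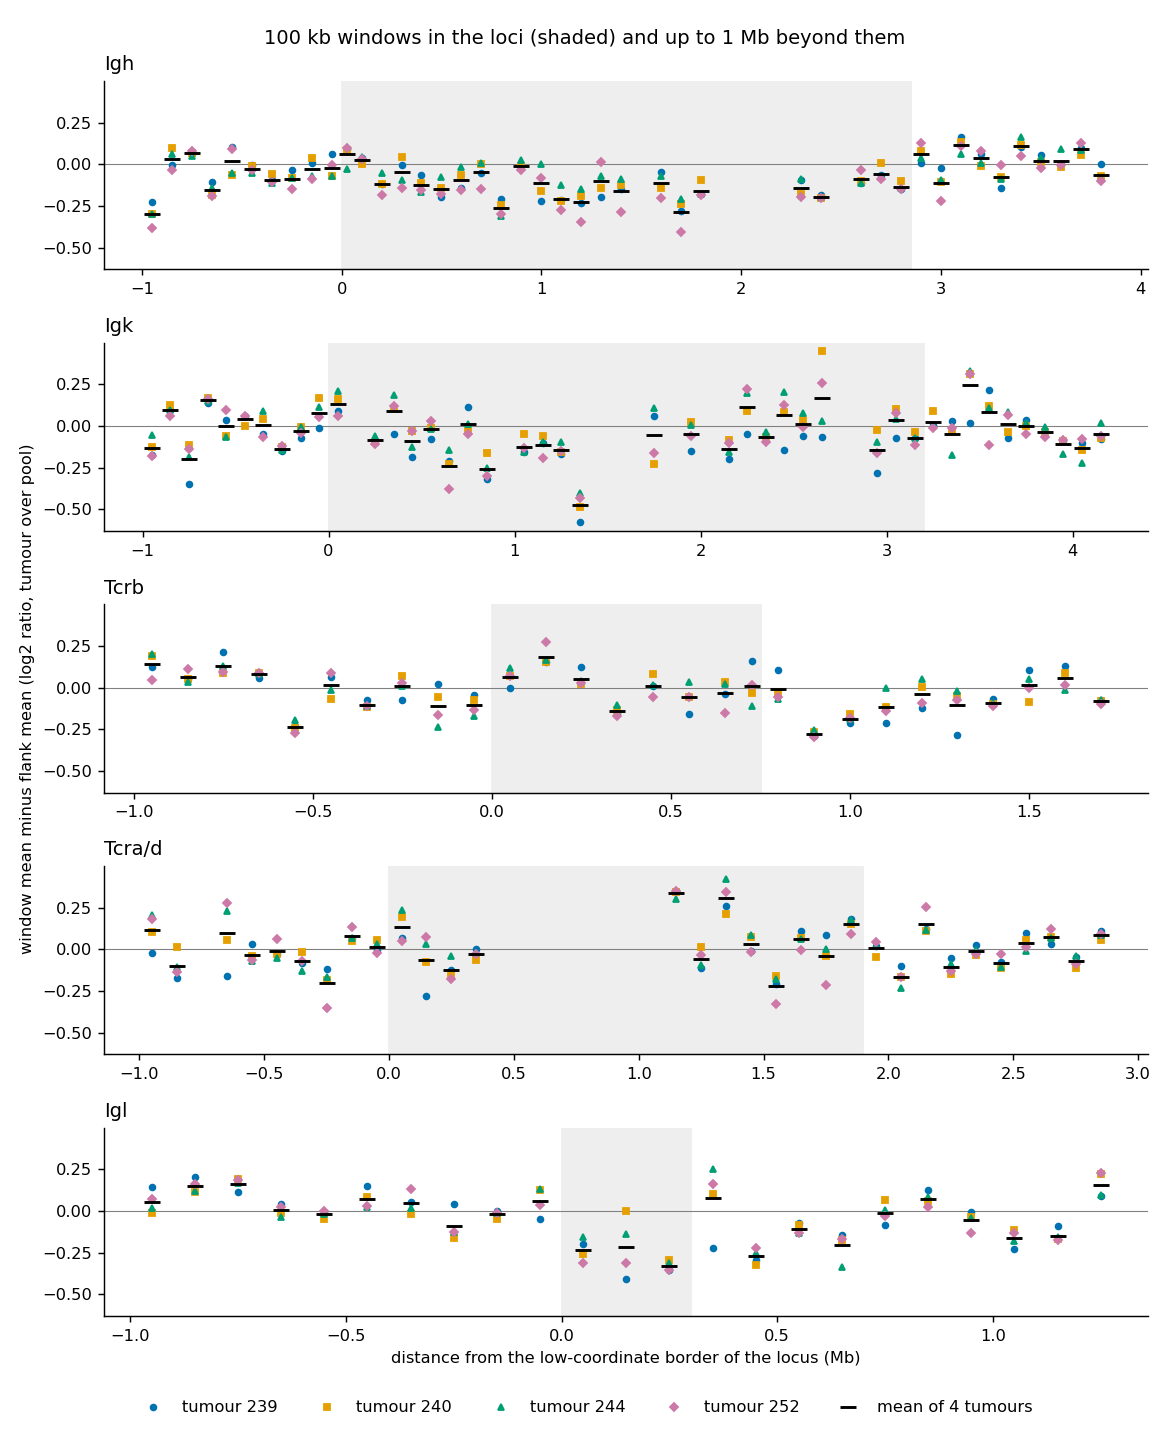
Mean log2 ratio of tumour over pool minus the flank mean in windows of 100 kb, along each locus (grey) and up to 1 Mb beyond its borders, by distance from the low-coordinate border in Mb. Points are tumours and black dashes their mean; windows with too few probes are left blank inside the loci, the Igk window at -0.47 is the lowest here (-0.27 with probes well above background only), and windows beyond the borders also reach -0.30.

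Tcra/d, the alpha and delta locus, was the one called higher than its flanks. Its level was 0.02, 0.07, 0.19 and 0.01 in tumours 239, 240, 244 and 252, against -0.04, -0.00032, 0.08 and 0.00037 in its flanks. The difference was 0.06, 0.07, 0.11 and 0.01 in the same tumours, averaging 0.062 ± 0.041 (limma adjusted p = 0.00285; SD, n = 4). It was 0.079 without tumour 252 and 0.047 without tumour 244. Against the high-coordinate flank alone it was 0.041 (limma adjusted p = 0.0514). Of the bins, 15.2% were as high or higher.

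The highest values of Tcra/d lay in and beside a stretch with few probes. Between 386 and 1127 kb from the low-coordinate border of Tcra/d there were only 3 probes, and the widest space in any of the loci, 373 kb, lay here. The first of the 3, at 53759070, read 1.91, 1.04, 2.44 and 1.74 in tumours 239, 240, 244 and 252 as log2 ratios. Its processed tumour signal was 527, 403, 670 and 513 and its pool signal 138, 192, 120 and 155, and the pool signal was well above background on 3 of 4 arrays. The other two, named after their values were seen, had 0.30, 0.77, 0.74 and 0.61 at 53966207 and 0.88, 1.14, 1.25 and 1.13 at 53992280. All 3 were positive in all 4 tumours, but the first was listed for its high values and the others after theirs were seen. Their shared sign is therefore no separate evidence. The probe at 53759070 fell out when only probes well above background on all arrays were kept, which left 0 locus probes at 1 or higher in all 4 tumours.

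**Figure D5:**
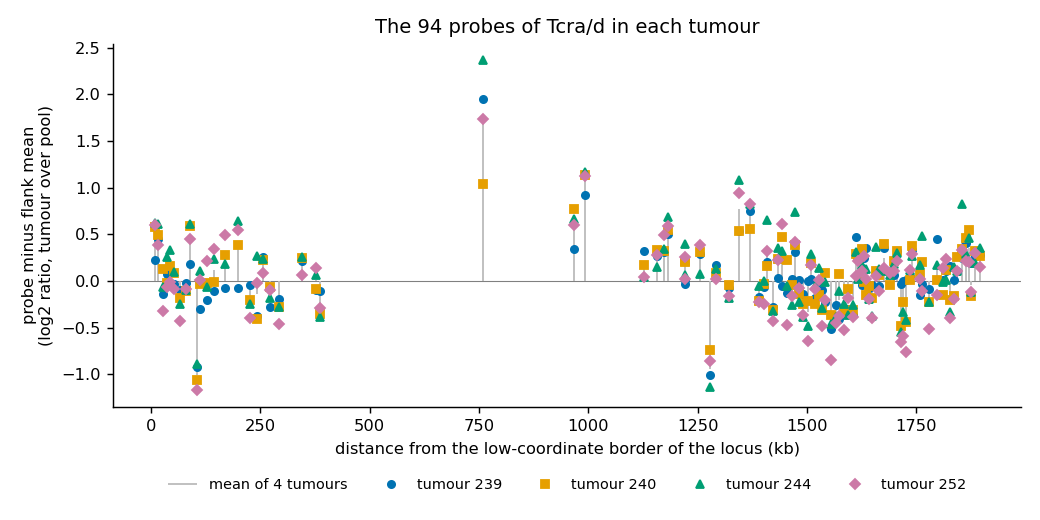
Log2 ratio of tumour over pool minus the flank mean for the 94 probes of Tcra/d, by distance from the low-coordinate border in kb; points are tumours and grey lines run to the mean of 4 tumours. The 3 probes between 386 and 1127 kb lie above 0 in all 4 tumours, and the one at 759 kb is the highest. That one was listed for its values, and the others were named after theirs were seen.

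Beyond this stretch the first window, from 54100001, was the highest of the loci, at 0.35, 0.35, 0.30 and 0.35 relative to the flanks in tumours 239, 240, 244 and 252 (limma adjusted p = 5.27e-06), and it averaged 0.55 with normexp (limma adjusted p = 1.24e-07). The window from 54300001 was at 0.26, 0.21, 0.42 and 0.35 in the same tumours (limma adjusted p = 5.96e-05). The window from 54500001 went the other way, at -0.21, -0.16, -0.18 and -0.33 (limma adjusted p = 0.000308). The windows from 54800001 and 53000001, at the borders, averaged 0.15 ± 0.04 and 0.14 ± 0.09 (SD, n = 4; limma adjusted p = 0.00115 and 0.00753). Of the 12 windows, 4 were called higher (33.3%) and 2 lower (16.7%), against 28.3% and 26.8% of windows outside the loci, so the share called higher was near that elsewhere. The constant end, 26 probes, was at 0.09, 0.08, 0.18 and -0.03 in the 4 tumours, against -0.01, 0.07, 0.19 and 0.03 in the other 68 probes, and it was higher in 2 of 4 tumours (exact sign-flip permutation p = 0.750).

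Genes that are not receptor segments also lie between the borders of Tcra/d. Dad1, a subunit of the oligosaccharyltransferase that attaches sugars to nascent proteins, had 2 probes at 0.30, 0.50, 0.37 and 0.21 relative to the flanks in tumours 239, 240, 244 and 252. It was above the flanks in all 4 tumours. Abhd4, a lipase of the abhydrolase family, had 2 probes at 0.11 ± 0.08 and Olfr1507, an olfactory receptor gene, 1 probe at -0.06 ± 0.17 (SD, n = 4).

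Tcrb, the beta chain locus, had no detectable difference from its flanks. Its level was -0.05, -0.03, -0.25 and -0.05 in tumours 239, 240, 244 and 252, against -0.05, -0.05, -0.28 and -0.03 in its flanks. Tumour 244 lay apart in both, with the rest of its chromosome 6. The difference was 0.0061, 0.019, 0.024 and -0.018, averaging 0.0077 ± 0.019 (limma adjusted p = 0.583; SD, n = 4). It was 0.016 without tumour 252. Its side of the threshold depended on the setting: the mean was -0.086 with normexp (limma adjusted p = 0.000202), 0.053 with flanks of 1 Mb (limma adjusted p = 0.00287) and 0.038 with the high-coordinate flank alone (limma adjusted p = 0.0177). The flank itself was uneven near the border, where the windows 100 to 300 kb beyond the high-coordinate end averaged -0.28 and -0.19.

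Of the 8 windows in Tcrb, 1 was called higher and 1 lower (12.5% each), below the 28.3% and 26.8% of windows outside the loci. The one from 40900001 was at 0.15, 0.15, 0.17 and 0.27 relative to the flanks in tumours 239, 240, 244 and 252 (limma adjusted p = 0.000482), and averaged 0.0064 with normexp (limma adjusted p = 0.848). The constant end, 18 probes, was at -0.08, -0.06, -0.28 and -0.12, against -0.03, -0.02, -0.24 and -0.02 in the other 45 probes. It was lower in 4 of 4 tumours, by 0.05 on average (by 0.26 with normexp and by 0.09 with probes well above background only), with the smallest exact sign-flip permutation p that 4 tumours allow, 0.13.

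The mouse Tcrb locus also carries trypsinogen genes, which encode precursors of the pancreatic protease trypsin, between its receptor segments. Prss2, one of them, had 1 probe at 0.33, 0.97, 0.38 and 0.66 relative to the flanks in tumours 239, 240, 244 and 252. Try10, another trypsinogen, was at -0.18, -0.31, -0.25 and -0.51 in the same tumours. Prss1 averaged -0.13 ± 0.12 (SD, n = 4), also from 1 probe. So Prss2 lay above and Try10 below the flanks in all 4 tumours. Moxd2, a monooxygenase-like gene, had 1 probe at 0.72, 0.61, 0.37 and 0.38 in the 4 tumours. The listed 1700074P13Rik, 1810009J06Rik, 2210010C04Rik, Gm5409 and ENSMUST00000173916 averaged -0.21, 0.26, 0.37, 0.0060 and 0.17 over the tumours, relative to the flanks, from 1 probe each but for 2 of the first. Trypsinogen genes are near copies of each other, and DNA of one can bind a probe of another. Whether that entered these values was not tested.

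In Igh the files name Zfp386, a zinc finger gene, whose 1 probe averaged -0.05 ± 0.08 relative to the flanks (SD, n = 4). Of 4 transcripts listed there only by number, the lowest, ENSMUST00000169629, was at -0.30, -0.36, -0.42 and -0.38 in tumours 239, 240, 244 and 252. ENSMUST00000103497 averaged -0.14. ENSMUST00000109715 and ENSMUST00000167845 averaged -0.04 and 0.01, each with both signs between tumours. In Igk, ENSMUST00000114214 was at -0.07, -0.30, -0.31 and -0.29. ENSMUST00000169629, ENSMUST00000103497 and ENSMUST00000114214 were below the flanks in all 4 tumours. In the loci, 22 of the 485 probes carried a gene name, and 12 of 19 such names matched a current symbol.

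Single probes of the other loci were called in both directions. In Igh, limma called 62 of 173 tested probes lower (35.8%) and 18 higher (10.4%), set against the same 25.4% and 28.0% outside the loci. In Igk 44 of 135 were lower and 31 higher, in Tcrb 16 of 63 were lower and 14 higher, and in Tcra/d 21 of 94 were lower and 31 higher. These shares lay between 22.2% and 33.0%, near those outside the loci. The 2 of 485 probes at -1 or lower in all 4 tumours compare with 0.636% of other probes of chromosomes 1 to 19, and the 1 probe at 1 or higher with 0.0820%. In single tumours, 10, 5, 11 and 4 of the locus probes were at -1 or lower in 239, 240, 244 and 252, and 1, 3, 3 and 2 at 1 or higher. No 2 neighbouring probes were past either value in all 4 tumours.

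The ratios of locus probes repeated between tumours. Over the probes of a locus, Pearson's r between pairs of tumours ran from 0.67 to 0.80 in Igh, 0.68 to 0.85 in Igk, 0.69 to 0.81 in Tcrb and 0.77 to 0.91 in Tcra/d. It ran from 0.26 to 0.73 over the 19 probes of Igl. In the flanks of the 5 loci it ran from 0.60 to 0.87. These correlations describe probes that share their sequence, the pool and the slide on all arrays, so they are no measure of agreement between tumours. The loci were also covered more thinly than their flanks, apart from Tcrb: Igh had 61.1 probes per Mb against 83.8 in its flanks, Igk 42.2 against 74.2, Tcra/d 49.5 against 88.0 and Igl 63.3 against 84.0, whereas Tcrb had 84.0 against 80.5.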

How the data were processed

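The loci, their borders and the lists were chosen with earlier results of these data known. Intensity per colour, background-subtracted and dye-normalised, and its log10 ratio are the authors' deposited scanner output, made with Agilent Feature Extraction 12.0.0 per the submitters' processing notes (12.0.1.1 per the file headers). The deposited value table repeats that log10 ratio. Spot flags are as deposited. The log2 ratio of the deposited processed signals was taken here without control or outlier-flagged spots, averaged per probe and centred on the median of chromosomes 1 to 19. 1 Igh probe had no value in tumour 239. Its 3 remaining values enter means, and it was left out of the test of probes.

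Loci, bins of 1 Mb (at least 5 probes), windows of 100 kb (at least 3) and probes, each minus its 3 Mb flanks, were fitted by limma 3.58.1 under R 4.3.3 (a single intercept; Benjamini-Hochberg over all rows at 0.05), which was tested on simulated data. This leaves out the spread between control mice, since 1 pool stands for them. Windows and probes inside a locus took the flanks of that locus, and those elsewhere took the probes within 3 Mb around themselves. The number of arrays limits the precision. Named items are the 5 loci, probes past -1 or 1 in all 4 tumours, up to 10 called windows in each direction by size, and genes the files name there. Gene symbols came from RefSeq (GRCm38.p6), used for names only. Alternatives were another centring, normexp (offset 50), the value table, probe filters, medians, other flanks, windows and thresholds, robust limma, and dropping tumours in turn. Normexp took the mean signals, which are not dye-normalised. A GC correction (quadratic, on probe GC and mean GC within 250 kb) was added after seeing the data. Other steps used Python 3.11.15, numpy 2.4.6, pandas 2.3.3, scipy 1.17.1 and matplotlib 3.10.9.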

Additional observations from a re-analysis of the deposited data

Results flagged for a closer look

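Values checked for 1 tumour lying far from the other 3 numbered 46, over loci, flanks, their differences, constant ends, named windows and printed probes. In 5 of them 1 tumour did, and chance gives about 1 in 20. In tumour 244 the Igk flanks were at -0.24, Tcrb at -0.25 and the Tcrb flanks at -0.28, each the lowest, beside a chromosome 6 mean of -0.25. The Tcra/d window from 54100001 had its lowest value in tumour 244, 0.30. The Tcrb window from 40900001 had its highest value in tumour 252, 0.27.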

How the results depend on the processing

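Differences of Igh and Igl from their flanks kept direction and call in all 16 alternatives run, and Tcra/d in 15 of 16. Igk averaged -0.037 with probes well above background only, -0.030 with the median over probes and 0.015 with the GC correction (chosen after seeing the data). Tcrb averaged -0.086 with normexp, 0.053 with 1 Mb flanks, where 2 loci were called higher, and 0.038 with the high-coordinate flank only, where Tcra/d averaged 0.041. The constant end of Igk was higher by 0.058 with normexp. The Igh window from 116100001 averaged 0.11 with normexp. Windows called lower were 34, but 26 with the GC correction, 23 relative to the chromosome mean and 16 with 250 kb windows, of which there are fewer. Windows called higher were 7, but 16 with normexp, 12 with the GC correction and 12 relative to the chromosome mean. Probes at -1 or lower in all tumours were 2, but 20 with normexp, 1 with probes well above background, 33 at a threshold of 0.5 and 0 at 2 on that scale. Probes at 1 or higher were 1, but 0 with normexp, 0 with probes well above background, 3 at 0.5 and 0 at 2. Apart from these last thresholds, the window size and the filter, which act by construction, the cause was not tested. Leaving out each tumour in turn, windows called higher ranged from 6 to 12 (12 without tumour 239), probes at 1 or higher from 1 to 2 (2 without tumour 239), probes at -1 or lower from 2 to 3, the constant end of Igk from -0.028 to 0.0016 (positive without tumour 244) and that of Tcra/d from -0.019 to 0.036 (negative without tumour 239). Of 187 values of 17 named windows under alternatives, 179 kept direction and call, 7 lost the call and 1 turned. No paired analysis was possible because there is 1 group, set against 1 pool. Probe noise limits Igl, with 19 probes, most, and windows rest on 3 to 13 probes.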
